A study of Mus musculus with 6 samples.

Results

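The 39 Hox genes of the mouse were followed through 6 peak lists of chromatin from gastrocnemius muscle. They were taken by symbol from RefSeq (Hoxa, Hoxb, Hoxc or Hoxd and a number, without the antisense and opposite-strand genes) and are 39 of the 21887 protein-coding genes on chromosomes 1 to 19, X and Y. They lie in 4 clusters, with 11 genes in Hoxa on chromosome 6, 10 in Hoxb on chromosome 11, 9 in Hoxc on chromosome 15 and 9 in Hoxd on chromosome 2. The muscle came from 4-week-old male C57BL/6 mice of a study of PHF2, a histone demethylase of the JmjC family with a PHD finger that binds H3K4me3. Chromatin was profiled by CUT&RUN, in which an antibody guides a nuclease to the marked nucleosomes so that the DNA around them is cut out and sequenced. All libraries carried floxed Phf2 alleles. The control genotype (Ctrl) was Phf2 flox/flox;Acta1 Cre-, and the conditional knockout (CKO) was Phf2 flox/flox;Acta1 Cre+, with Cre driven by the promoter of skeletal muscle actin. Whole muscle also holds satellite cells, fibroblasts, vessels, blood cells and Schwann cells, in which that promoter is not known to act. There was 1 library of H3K4me3 (Ctrl genotype, titled wild type), 1 of H3K9me2 in Ctrl, 1 of H3K9me2 in CKO, 2 inputs of Ctrl and 1 input of CKO. With 1 library per mark and genotype there was no replicate error, and no test was made.

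Hox genes encode homeodomain transcription factors that give cells their position along the body axis and along the limbs. Genes with low numbers act towards the head, and genes with high numbers act towards the tail and the tip of the limb, in an order that matches their order on the chromosome. The trithorax group, which includes the MLL methyltransferases, deposits H3K4me3 at starts of active Hox genes, and the Polycomb group keeps silent ones repressed. H3K4me3 can also lie at silent developmental genes together with the Polycomb mark. Adult connective tissue cells are known to keep a pattern of Hox expression from the place where they arose. H3K9me2 is a mark of repressed chromatin and a substrate described for PHF2.

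The H3K4me3 list held 16573 peaks with a median fold of 10.01, where the fold is the authors' ratio of the fragments at the peak summit to the local background. The summits of its peaks held a median of 52 fragments, as recovered from the fold and the p-value. The other lists rested on far fewer, with medians of 6 to 9 fragments. They held 3703 peaks for H3K9me2 in Ctrl, 12832 for H3K9me2 in CKO, 3071 and 1309 for the 2 Ctrl inputs and 10931 for the CKO input. The lowest local background, a measure of depth, was 0.391 fragments for H3K9me2 in Ctrl against 0.544 in CKO, and 0.294 and 0.292 for the Ctrl inputs against 0.371 for the CKO input. In both pairs the CKO library was thus the deeper and had the longer list, and the part of depth in the counts below was not tested.

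H3K4me3 peaks were found at nearly all Hox genes. A peak lay in the gene or within 2 kb of it for 35 of the 39, against 63.8% of all protein-coding genes. All 11 Hoxa genes, 8 of 10 Hoxb genes, 8 of 9 Hoxc genes and 8 of 9 Hoxd genes were included. By number, 7 of 8 genes numbered 1 to 3, all 15 numbered 4 to 8 and 13 of 16 numbered 9 to 13 had a peak. The 4 genes without H3K4me3 were Hoxb1, which patterns the hindbrain and the facial nerve, Hoxb13, a gene of the prostate and tail end, Hoxc12, and Hoxd12, a gene of the digits. Hox genes are short, with a median of 3737 bp against 17169 bp for all protein-coding genes, and short genes have less room for a peak. Among the 3553 protein-coding genes of 2559.5 to 7436 bp, the middle of the range of Hox lengths, 56.1% had a peak. Of the 19 Hox genes of that length, 18 had one.

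**Figure D1:**
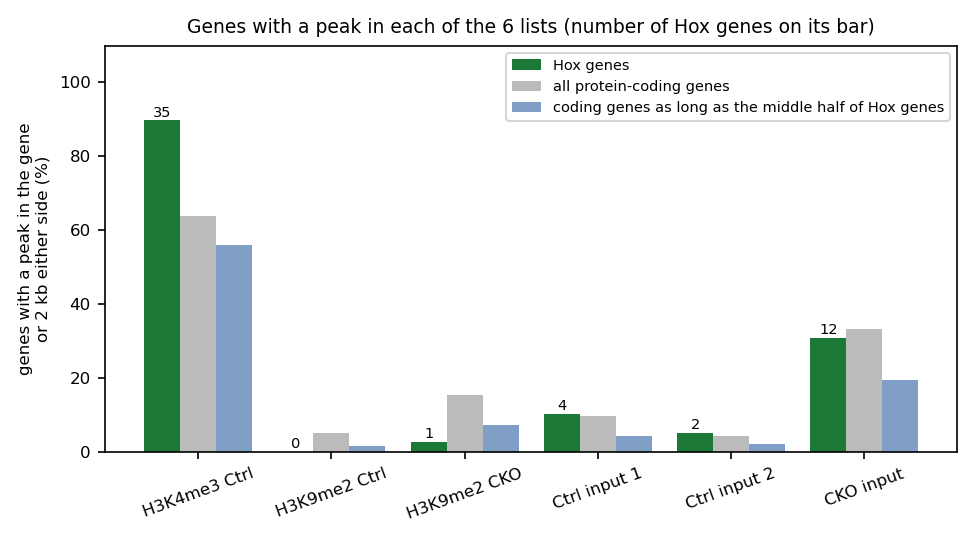
Share of genes with a peak in the gene or within 2 kb, in percent, for each of the 6 peak lists; green bars are the 39 Hox genes with their number above, grey bars all protein-coding genes and blue bars the coding genes with lengths in the middle of the Hox range. The Hox bar stands above both others for H3K4me3 (35 genes) and the H3K9me2 bars hold 0 and 1 genes, while the input bars lie between 2 and 12 genes. For the 2 Ctrl inputs the Hox bar is also the highest, at 10.3% against 9.59% and 4.36%, and at 5.13% against 4.32% and 2%.

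The peaks were dense. The 4 clusters, taken from the first to the last Hox gene with 2 kb either side, span 508 kb and held 54 H3K4me3 peaks, 10.6 per 100 kb against 0.623 per 100 kb over the genome. Peaks covered 7.67% of the clusters and 0.507% of the genome. By gene, these were 54 peaks for 39 Hox genes, beside 16573 peaks for 21887 coding genes. The part of gene density in the contrast per 100 kb was not tested. Hoxa was covered most, with 17 peaks over 12.3% of its length, followed by Hoxc with 15 peaks over 9.23%, Hoxd with 11 over 8.17% and Hoxb with 11 over 3.50%. Fewer peaks lay just outside, with 0 to 4 in each flank of 100 kb, beside the 0.623 per 100 kb over the genome. The 100 kb on the low-coordinate side of Hoxa, the 100 kb beyond Hoxb1 and the 100 kb beyond Hoxc13 held none. Beyond Hoxb13 there was 1, next to Ttll6 and Calcoco2, and beyond Hoxa13, where Evx1 lies, there were 2. On either side of Hoxd there was 1, and the 100 kb beyond Hoxc4 held 4.

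**Figure D2:**
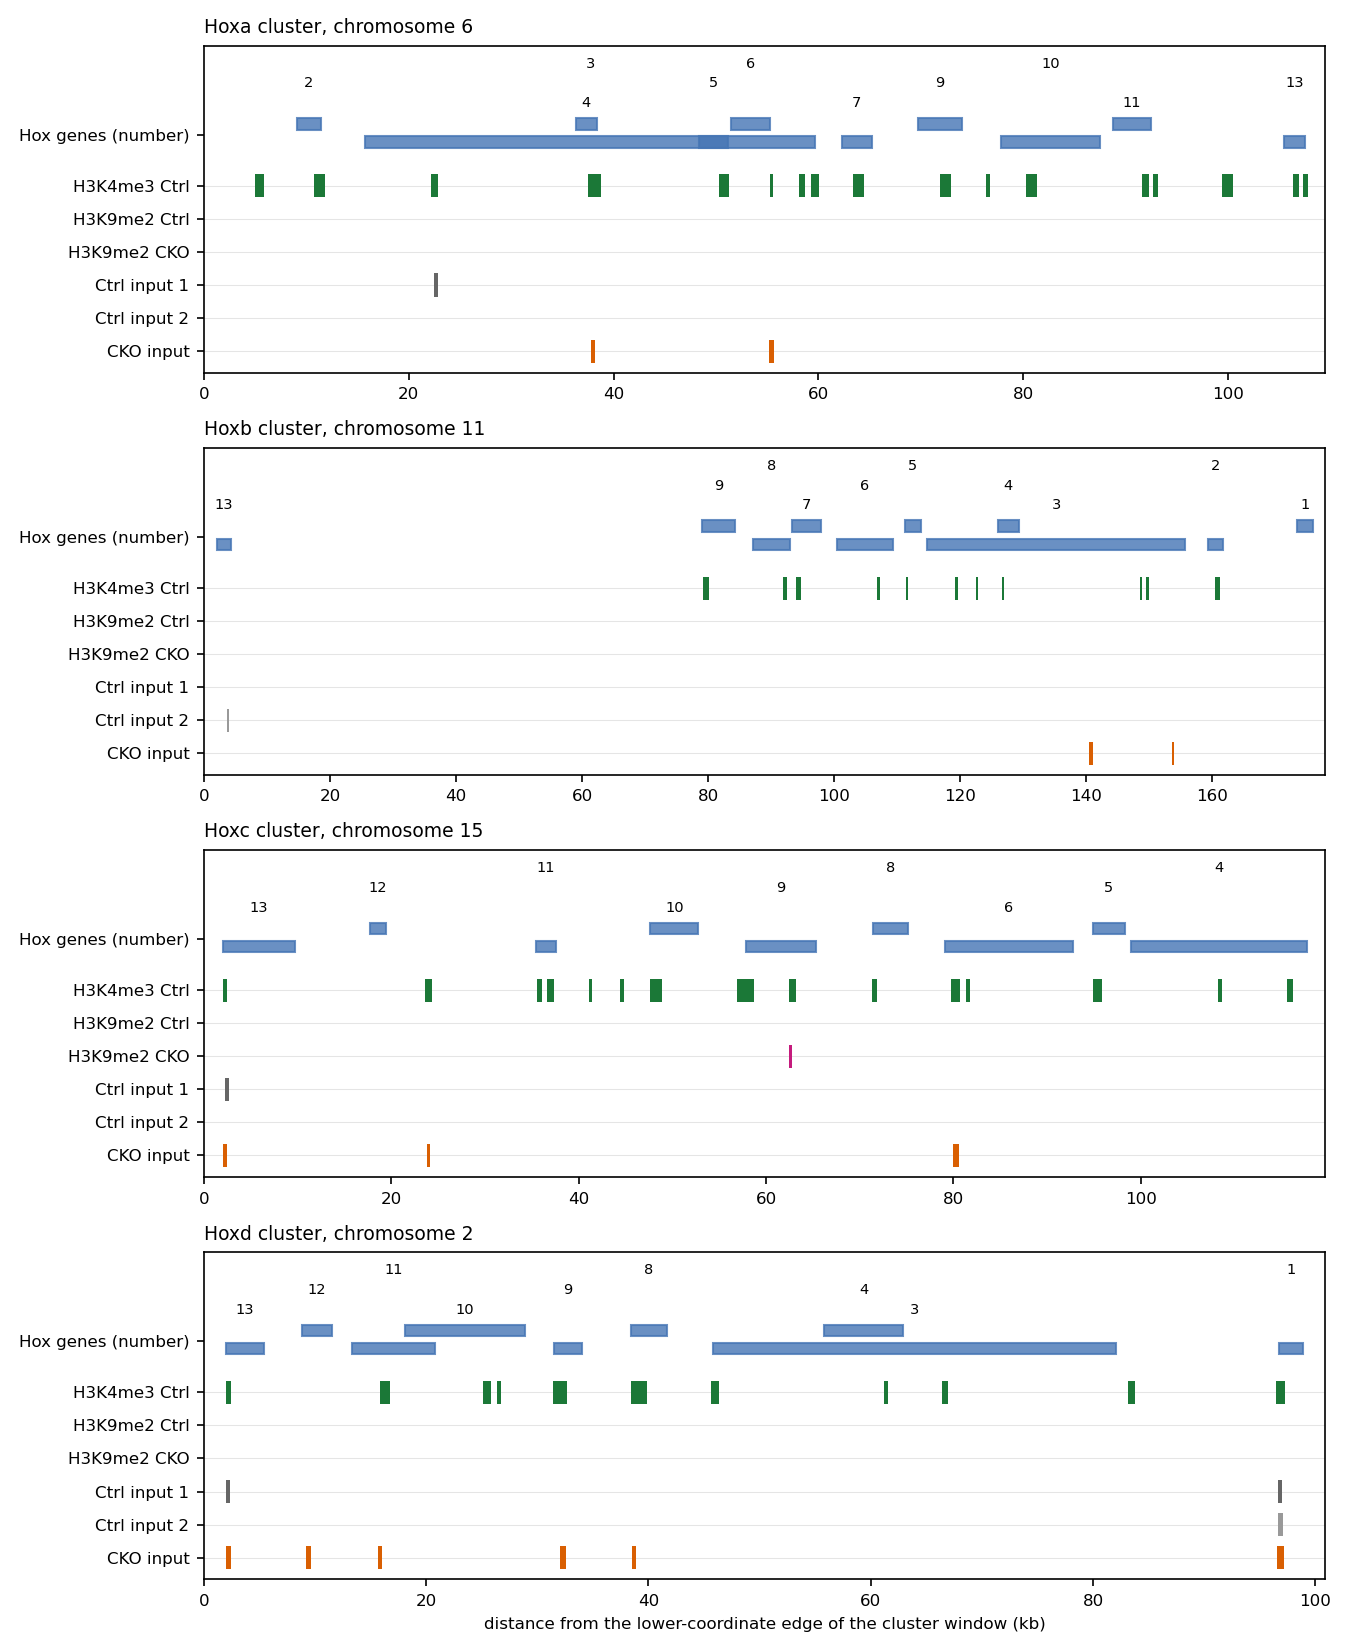
Map of the 4 Hox clusters to scale, with distance in kb from the low-coordinate edge of each; blue boxes are 38 of the 39 Hox genes with their numbers, and coloured bars are the peaks of the 6 lists. H3K4me3 peaks run through all 4 clusters except for long stretches such as the one around Hoxb13, input peaks are most frequent in Hoxd, and a single H3K9me2 peak lies in Hoxc.

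The marked stretches were interrupted by gaps. The longest ran 79.2 kb from the outer edge of Hoxb through Hoxb13 to Hoxb9, and a second gap of Hoxb, 21.5 kb between Hoxb4 and the far part of Hoxb3, lay inside Hoxb3. In Hoxc a gap of 21.1 kb between Hoxc13 and the next peak contained the whole of Hoxc12. The widest gap of Hoxd was 16.2 kb, in the far part of Hoxd3 and just beyond it, and that of Hoxa was 14.7 kb, within Hoxa3 and up to Hoxa4. Of the 4 unmarked genes, Hoxb13 stood farthest from H3K4me3, with its start 69640 bp from the nearest peak. The distance was 12278 bp for Hoxb1, 6314 bp for Hoxd12 and 5860 bp for Hoxc12.

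Of the 54 peaks, 47 lay in a Hox gene body, 3 within 2 kb of one and 4 between. The summit lay within 1 kb of a Hox start in 28, of which 23 were downstream of the start and 5 upstream. Annotated genes overlap in these clusters, and 20 of the 54 peaks also touched another annotated gene, such as Hoxaas3 around Hoxa6, Hoxa11os at Hoxa11, Hoxb5os at Hoxb5 and Haglr at Hoxd1. Reads of histone marks carry no strand, so a peak there cannot be assigned to the Hox gene or to its neighbour. Of the 54 peaks 8, some of them among those 20, lay in the windows of several Hox genes at once, mostly because Hoxa3, Hoxb3 and Hoxd3 have long models that run across their neighbours. A peak lay within 1 kb of an annotated start for 29 of the 39 genes, against 59.2% of all coding genes with an entry in the RefSeq promoter table. With that table alone the Hox share was 17 of 22. In Hoxa 10 of 11 genes had such a peak, in Hoxc 8 of 9, in Hoxd 7 of 9 and in Hoxb 4 of 10. Hoxa9, Hoxb2, Hoxb3, Hoxb6, Hoxb8 and Hoxd4 had a peak in the window but none that close to a start. Hoxb2 and Hoxa9 missed the limit narrowly, at 1020 and 1047 bp. For Hoxb2, Hoxb3 and Hoxb6 the start was the 5′ end of the gene model, so the Hoxb count depends on that choice.

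Genes were ranked by the highest fold in their window. The 2 highest folds belonged to Hoxd3 and Hoxc4, genes of the front part of their clusters. Hoxd3, which shapes the first neck vertebrae, had a peak of fold 13.97 with 105 fragments across its start (chr2:74711819-74712557, mm10). Its fold was higher than that of 79.9% of all H3K4me3 peaks. Hoxc4 had a fold of 13.2 with 47 fragments (chr15:103034754-103035355). They were among the 6 Hox genes above the median of the list. Hoxc5 at 11.1 with 51 fragments, Hoxb2 at 10.8 with 42 and Hoxc8 at 10.5 with 22 also passed that median. Hoxd1 reached 9.96 with 37 fragments, Hoxd10 9.94 with 42 and Hoxd13, a gene of the digits, 9.68 with 28.

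In Hoxa, Hoxa11, a gene of the forearm, kidney and uterus, had a fold of 9.42 with 76 fragments. Folds of 7.52 to 8.49 were seen at Hoxa2, Hoxa3, Hoxa4, Hoxa5, Hoxa6 and Hoxa13. Hoxa3, Hoxa5 and Hoxa6 share their highest peak, at the start of Hoxa5, so that their equal value of 8.49 is 1 measurement. At their own starts Hoxa3, a gene of thymus and parathyroid development, had 4.71 and Hoxa6 3.21. By the highest fold in the window, lowest in Hoxa were Hoxa10 at 4.57, Hoxa9 at 4.61 and Hoxa7 at 5.62.

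In Hoxb the highest fold after Hoxb2 was 9.40 with 36 fragments, in Hoxb3, followed by 8.79 with 29 at Hoxb9. Hoxb4 had 7.81, Hoxb6 7.45 and Hoxb7 and Hoxb8, which share a peak of 50 fragments, 6.76. Hoxb5 was lowest by this measure, at 5.73 with 23 fragments. The shared peak lay in the body of Hoxb8, and the peak in the body of Hoxb7 had 3.93 with 29 fragments. Hoxb summits were small throughout, and no peak of that cluster held more than 50 fragments.

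In Hoxc, after Hoxc4, Hoxc5 and Hoxc8, folds of 8.29 to 8.32 were seen at Hoxc6, Hoxc9 and Hoxc11. Lowest were Hoxc10, a gene of the hindlimb and lumbar spinal cord, at 5.25 with 57 fragments, and Hoxc13, a gene of hair and nails, at 6.71 with 14. In Hoxd the folds of Hoxd8 and Hoxd9 were 7.95 and 7.97. Those of Hoxd11 and Hoxd4 were lowest, at 7.004 with 19 fragments and 6.93 with 10. The Hoxd4 peak (chr2:74727387-74727751), shared with Hoxd3, held the fewest fragments of the 54 and lay 5409 bp from the annotated start of Hoxd4.

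As a whole the Hox peaks had lower folds than the list they belong to. Their median fold was 7.22 (range 2.72 to 13.97), and 8 of 54 peaks, or 14.8%, reached the list median, against 50% in the list. Over genes, the median of the highest fold was 8.32 for the 35 Hox genes, against 11.3 for all coding genes with a peak, and that of the most summit fragments was 47, against 69. Low folds were not particular to Hox genes. The median of the highest fold was 8.13 for Fox, Sox, Tbx, Lhx and Gata genes with a peak, and 11.8 for clustered protocadherin genes. The summits of Hox peaks were also smaller than those of the list, with a median of 42 fragments (10 to 123), and 33.3% of them reached the list median against 50.1%. The local background was higher, at a median of 4.14 fragments against 3.59. By cluster it was higher in Hoxa (6.54) and Hoxc (9.97) and lower in Hoxb (2.97) and Hoxd (2.81).

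Fold and fragments ordered the genes differently. Hoxa9, a gene of blood stem cells and the limb, had the largest summit of all Hox peaks, with 123 fragments (chr6:52225217-52226323), more than 94.2% of the list. Its fold of 4.61 was higher than that of only 8.11% of the list, over a local background of 25.9 fragments. The next largest, at Hoxc9, had 113 fragments and a fold of 8.29 over a background of 12.8. The peak beside Hoxa10 at Mir196b had 111 fragments, a fold of 3.50 and the highest local background of the clusters, 31.0 fragments. The Hoxa10 peak itself had 94 fragments and the Hoxa7 peak 94. So by the highest values of each gene, Hoxa7, Hoxa9 and Hoxa10 had the lowest folds of their cluster and the most fragments. The peak at the start of Hoxa6 went otherwise, with a fold of 3.21 and only 44 fragments. The Hoxd3 peak, with 105 fragments over a background of 6.59, had both a high fold and a high count. What the local background was made of, reads of an input or reads of the same library, is not given in the sources used.

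Among the Hox peaks, high local background was limited to Hoxa and Hoxc. Of the 54 peaks, 11 (20.4%) lay above the 95th percentile of the list, 11.7 fragments, against 5% by construction: 6 in Hoxa, 5 in Hoxc and 0 in both Hoxb and Hoxd. Peaks with close neighbours had the higher background. Another H3K4me3 peak lay within 5 kb for 37 of 54 Hox peaks, 68.5%, against 12.2% in the list. The 17 Hox peaks with no such neighbour had a median background of 2.63 fragments and a median fold of 9.68. The 26 with 1 neighbour had 5.43 and 7.44, and the 11 with at least 2 had 13.02 and 4.69, while median summits went from 32 to 43 to 67 fragments. Over the whole list the same 3 classes had median backgrounds of 3.22, 6.15 and 11.1 fragments and folds of 10.6, 6.41 and 4.50, with summits of 52, 48 and 57 fragments. Low folds at crowded peaks were thus seen over the list as well, while the median summits of the list did not climb from class to class as those of Hox peaks did. Hox peaks were not unusually wide: 1 of 54, the peak of 1830 bp at the start of Hoxc9, passed the 95th percentile of 1494.4 bp, against 5%.

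The H3K9me2 lists held 1 peak in the Hox clusters. In Ctrl 0 of 39 Hox genes had a peak, against 5.16% of all protein-coding genes. In CKO 1 of 39 had one, against 15.4%. Of the 19 Hox genes of similar length 0 had a peak in Ctrl, against 1.6% of coding genes of that length, and 1 in CKO, against 7.18%. These counts lie near the shares of genes of that length. The peak lay in Hoxc9 (chr15:102981553-102981920), a gene of the trunk and thoracic spinal cord, with a fold of 3.55, 5 fragments at the summit and a −log10 q of 1.70. It sat inside the second H3K4me3 peak of Hoxc9, 4670 bp downstream of the start. Of the 54 Hox H3K4me3 peaks that 1 overlapped H3K9me2 in CKO, against 10.8% of all H3K4me3 peaks, and 0 did so in Ctrl, against 2.91%. The 4 genes without H3K4me3 had no H3K9me2 peak either, in either genotype. Over the clusters the density was 0 per 100 kb in Ctrl and 0.197 in CKO, and over the genome 0.139 and 0.483. A Hoxc9 peak of 5 fragments in CKO and none in Ctrl, from 1 library each, has no replicate check. Broad low domains of H3K9me2 would not appear in lists of narrow peaks.

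Input libraries, whose preparation the labels do not describe, also had peaks at Hox genes. The first Ctrl input had peaks at 4 of 39, against 9.59% of all genes, the second at 2, against 4.32%, and the CKO input at 12, against 33.2%. These counts lie near the shares of all genes. Among genes of similar length the shares were 4.36%, 2% and 19.4%, and of the 19 Hox genes of that length 1, 0 and 4 had a peak, again near them. In the first Ctrl input the peaks were at Hoxa3 (fold 4.83), Hoxc13 (4.59), Hoxd13 (4.54) and Hoxd1 (3.71), with 5 to 8 fragments each. In the second they were at Hoxb13 (5.34) and Hoxd1 (3.76), with 8 and 5 fragments. Hoxd1 was thus the only Hox gene with a peak in all 3 inputs.

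The CKO input had 13 peaks in the clusters, of which 6 were in Hoxd, the shortest cluster. Hoxd8 had the highest fold, 6.82 with 14 fragments, followed by Hoxb3 at 6.66, Hoxd13 at 6.33, Hoxa4 at 5.95 in a peak shared with Hoxa3, and Hoxd11 at 5.65. Hoxc13 had 5.40, Hoxd1 5.26, Hoxa6 5.06, Hoxc6 4.09, Hoxd12 3.98 and Hoxd9 3.68. A second peak of Hoxb3 had 3.97, and a peak of 4.64 lay between Hoxc12 and Hoxc11, outside all windows. A peak in a Ctrl input as well was found for Hoxa3, Hoxc13, Hoxd1 and Hoxd13. At Hoxc13, Hoxd1 and Hoxd13 the Ctrl and CKO input peaks overlapped, and at Hoxa3 they lay apart in its long model. The other 8 genes had a peak in the CKO input only, the deepest of the 3 and the one with the longest list. Hoxd12 and Hoxb13 were the genes without H3K4me3 that had an input peak, and Hoxb1 and Hoxc12 had no peak in any of the 6 lists.

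Input peaks coincided with H3K4me3. All 4 peaks of the first Ctrl input in the clusters, 1 of 2 of the second and 10 of 13 of the CKO input overlapped an H3K4me3 peak, against 47.7%, 54.2% and 50% over those lists. Seen from the other side, 10 of the 54 Hox H3K4me3 peaks, 18.5%, overlapped a CKO input peak, against 32.7% of all H3K4me3 peaks. For the Ctrl inputs the numbers were 4 of 54, against 8.84%, and 1 of 54, against 4.28%. The exceptions in the CKO input were both Hoxb3 peaks and the Hoxd12 peak. Whether the H3K4me3 peaks at these genes include signal of the kind the inputs show was not tested.

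The RefSeq promoter table (GRCm38.p6, the assembly of mm10) holds 24 promoters of 22 Hox genes, each of 300 bp from 250 bp before the start to 50 bp after it. CpG dinucleotides, the sites of DNA methylation, are dense at most starts that carry H3K4me3. The 17 Hox promoters with a peak within 1 kb held a median of 20 CpGs (6 to 45), and the 7 without held 10 (4 to 13). Those 7 include a start of Hoxa10 and a start of Hoxd11, genes whose other start had a peak. The medians over all coding promoters were 22 and 3, so the unmarked Hox promoters held more CpGs than the median unmarked promoter. Hoxa13 had the most, 45, then Hoxd13 with 37, and Hoxa5 and Hoxd1 with 29 each. Marked promoters with few CpGs were those of Hoxd8, with 6, and Hoxa2, Hoxa7 and Hoxc4, with 9 each. The split depends on the limit of 1 kb. The nearest peak lay 753 bp from the start of Hoxa7 and 359 bp from that of Hoxc4, off their windows. Hoxa9, with 4 CpGs, counted as unmarked with a peak at 1047 bp. The 4 promoters with a CKO input peak on them, of Hoxd13, Hoxd11, Hoxd1 and Hoxa6, held a median of 27.5 (25 to 37) and the other 20 a median of 13. Over all coding promoters these medians were 27 and 9.

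**Figure D3:**
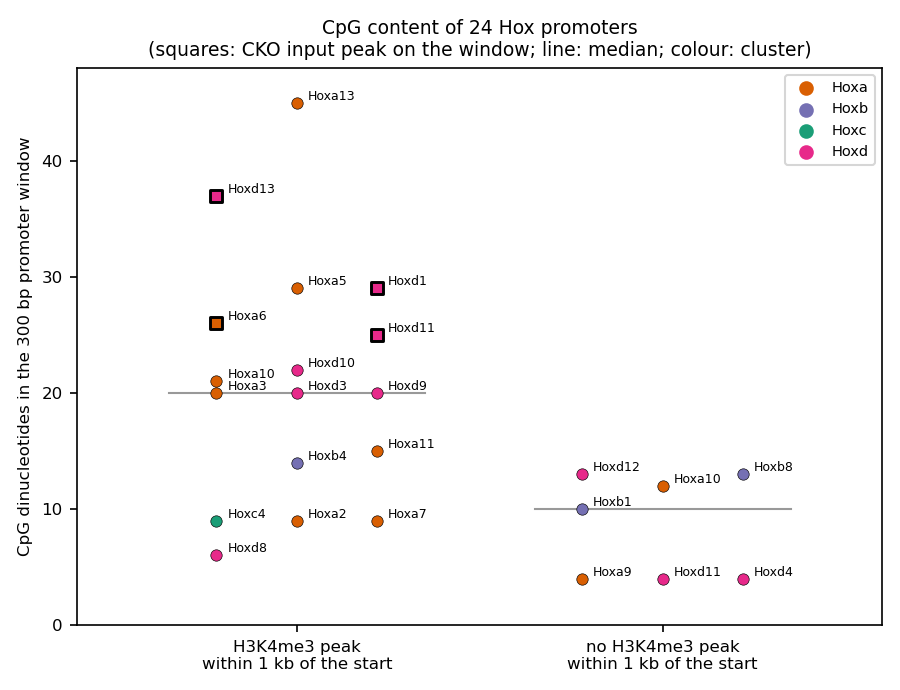
CpG dinucleotides in each of 24 Hox promoters of 300 bp, split by an H3K4me3 peak within 1 kb of the start; squares mark promoters with a CKO input peak on them, colours the clusters and lines the medians, 20 and 10. The 7 promoters without H3K4me3 hold 4 to 13 CpGs, a range into which 4 of the marked promoters also fall, and the 4 squares lie at 25 or more. Hoxa10 and Hoxd11 have a start in each group.

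The promoters of 6 genes are shown, each as the 250 bases before the start, 5′ to 3′ on the gene's strand, with every CpG in capitals, because they pair marked with unmarked starts. Hoxd3 (chr2:74711743-74711992, plus strand, 12 CpGs) carried the highest fold, and Hoxd4, a gene inside the Hoxd3 model (chr2:74721728-74721977, plus strand, 3 CpGs), had no peak near its start. Hoxd13 (chr2:74667975-74668224, plus strand, 31 CpGs) carried H3K4me3 and peaks in 2 inputs, and its neighbour Hoxd12 (chr2:74674763-74675012, plus strand, 10 CpGs) carried no H3K4me3. Hoxa13 (chr6:52260881-52261130, minus strand, 35 CpGs) had the densest promoter, and Hoxb1 (chr11:96365508-96365757, plus strand, 7 CpGs) had no peak in any list.
Hoxd3 promoter: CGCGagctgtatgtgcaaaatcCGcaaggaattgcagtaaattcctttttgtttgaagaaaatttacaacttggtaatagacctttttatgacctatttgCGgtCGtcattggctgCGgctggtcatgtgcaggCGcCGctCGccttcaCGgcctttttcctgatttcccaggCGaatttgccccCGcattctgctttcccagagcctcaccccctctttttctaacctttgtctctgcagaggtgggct
Hoxd4 promoter: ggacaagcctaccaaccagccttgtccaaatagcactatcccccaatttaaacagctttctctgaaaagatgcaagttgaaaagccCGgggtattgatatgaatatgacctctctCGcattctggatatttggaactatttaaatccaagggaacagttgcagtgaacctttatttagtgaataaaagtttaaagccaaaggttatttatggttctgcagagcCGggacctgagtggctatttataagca
Hoxd13 promoter: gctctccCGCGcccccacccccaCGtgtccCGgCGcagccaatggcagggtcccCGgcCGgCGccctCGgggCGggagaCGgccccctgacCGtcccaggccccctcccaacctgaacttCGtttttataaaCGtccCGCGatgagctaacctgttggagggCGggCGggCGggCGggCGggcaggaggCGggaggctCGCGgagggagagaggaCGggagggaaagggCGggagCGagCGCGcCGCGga
Hoxd12 promoter: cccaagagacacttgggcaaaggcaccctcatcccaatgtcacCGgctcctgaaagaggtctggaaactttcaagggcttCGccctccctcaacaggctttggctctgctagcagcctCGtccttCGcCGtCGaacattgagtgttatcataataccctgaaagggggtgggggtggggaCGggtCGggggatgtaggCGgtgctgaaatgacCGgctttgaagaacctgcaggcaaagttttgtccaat
Hoxa13 promoter: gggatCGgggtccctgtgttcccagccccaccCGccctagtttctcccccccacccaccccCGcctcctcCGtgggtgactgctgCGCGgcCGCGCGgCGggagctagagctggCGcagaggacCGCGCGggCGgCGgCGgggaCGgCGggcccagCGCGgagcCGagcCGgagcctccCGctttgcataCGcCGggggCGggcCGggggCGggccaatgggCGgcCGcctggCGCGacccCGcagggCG
Hoxb1 promoter: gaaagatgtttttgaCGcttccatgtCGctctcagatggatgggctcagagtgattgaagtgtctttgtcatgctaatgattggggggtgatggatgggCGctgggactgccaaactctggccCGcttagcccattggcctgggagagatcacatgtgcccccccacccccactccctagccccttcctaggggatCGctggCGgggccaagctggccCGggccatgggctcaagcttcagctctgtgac

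Motifs of the factors that bind with Hox proteins were rare in these windows. The letters TGATTNAT, a site of the kind bound by Hox and Pbx proteins together, were found on either strand in 2 of 24 promoters, Hoxa2 and Hoxd11, or 8.33%, against 2.75% of all coding promoters. The letters TGACAG, of the kind bound by Meis proteins, were found in 2, Hoxa2 and Hoxa3, or 8.33%, against 18.7%. Each motif was searched by itself, whether or not it overlapped the other, and a match describes letters and not binding.

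The clusters also hold microRNA genes, which repress messenger RNAs through their seed, bases 2 to 8, shown in capitals. The miR-10 pair and the miR-196 pair each share a seed across clusters.
miR-10a-5p: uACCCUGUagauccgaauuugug
miR-10b-5p: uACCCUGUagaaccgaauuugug
miR-196a-5p: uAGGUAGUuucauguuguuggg
miR-196b-5p: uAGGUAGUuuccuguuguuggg
miR-615-3p: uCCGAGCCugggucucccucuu
Mir196b, between Hoxa9 and Hoxa10, and Mir615, inside Hoxc5, lay on H3K4me3 peaks, with folds of 3.50 and 11.1. The hairpin of Mir10b, inside the Hoxd4 model, lay 1250 bp from the nearest peak and that of Mir10a, beside Hoxb4, 1582 bp. The copies of miR-196a were 2552 bp away in Hoxc (Mir196a-2, beside Hoxc9) and 6277 bp away in Hoxb (Mir196a-1, beside Hoxb9). Members of a seed family thus differed in their distance to H3K4me3, and no peak of the other 5 lists lay within 2 kb of any of them.

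Genes that act on or with Hox genes had H3K4me3 throughout, a mark that 63.8% of all coding genes had. All 15 Polycomb genes examined, with the highest folds at Phc2 (13.5), Ezh1 (12.9) and Phc1 (12.8), had a peak. So did all 11 genes of the MLL and trithorax group, led by Ash2l (16.2), Wdr5 (15.3) and Dpy30 (14.2), and all 9 TALE cofactors of Hox proteins, led by Meis3 (15.01), Pbx4 (12.5) and Meis1 (9.85). Their median folds were 10.1, 10.9 and 8.61, which like the 8.32 of the Hox genes lie under the 11.3 of all coding genes with a peak. Among 20 other homeobox genes 18 had a peak, but not Evx2, led by Dlx1 (11.8), En2 (9.40) and Msx1 (8.56), with a median fold of 6.74. Of the ParaHox and Cdx genes, relatives of Hox that lie outside the clusters, only Gsx1 of 6 had a peak, at 5.03, and Gsx2, Pdx1, Cdx1, Cdx2 and Cdx4 had none. Among 19 genes around the clusters 17 had a peak, with a median fold of 14.4 and the highest at Hibadh (20.5), Snx10 (17.2) and Tax1bp1 (16.8), and without one were Skap1 and Evx2. Some genes around the clusters thus reached folds that no Hox gene did. Within 100 kb of a cluster these were Lnpk (15.9) and Mtx2 (16.2), both beside Hoxd. Evx1 (5.13), Ttll6 and Calcoco2 (both 6.93) stayed below the highest Hox fold, and Skap1 and Evx2 also lie within 100 kb.

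Marker genes of the cells in muscle were checked in the same H3K4me3 list. Of 12 muscle fibre genes 6 had a peak, with Mef2c (9.52), Myod1 (8.95) and Des (8.81) highest, and the fibre genes Acta1, Ckm, Ttn, Myh1, Myh2 and Myh4 had none. Of the markers of other cells, 3 of 5 for satellite cells, 4 of 7 for fibroadipogenic cells, 4 of 6 for endothelium, 2 of 6 for blood and immune cells and 2 of 5 for Schwann cells had a peak. Peaks with high folds were at Pax7 (9.32), Twist2 (12.5), Kdr (14.3) and Cd68 (12.6), and Myf5, Vcam1, Dcn, Lum, Col1a1, Pecam1, Cdh5, Ptprc, Csf1r, Cd3e, Itgam, Sox10 and S100b were among those without. The share over all coding genes was 63.8%, and of these lists only the endothelial one lay above it, so the counts single out no cell type. Whether a Hox peak came from fibres or from other cells cannot be told apart in whole tissue, nor can fewer marked cells from less mark per cell. No RNA level was analysed here.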

How the data were processed

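CUT&RUN peak lists of 6 libraries were used, 1 list per library. The submitters' processing notes name Bowtie2, MACS2 and mm10. Tool versions, and whether peak calling used an input as control, are not given in the sources used. For each peak the authors deposited a fold (a linear ratio), the p-value and the q-value (each as −log10), a score equal to 10 times −log10 q rounded down, and the summit offset in bp. The deposited lists stop near a q of 0.05.

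Only the autosomes, X and Y were kept. Summit fragments and local background were solved from the fold, (summit + 1)/(background + 1), and the Poisson p-value, with a match to 0.1% or better in at least 99.0% of a list's peaks. On simulated peaks 5000 of 5000 fragment counts were recovered. Where fewer fragments were counted a peak is the less certain, and no interval was computed for folds. The label of the groups came from the genotype and title of each sample.

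Gene positions are those of RefSeq on GRCm38.p6. A gene had a peak when at least 1 bp of a peak lay in the gene or 2 kb either side. Start sites came from the RefSeq promoter table for 22 genes and from the 5′ end of the gene model, on the strand of the cluster, for the others. Shares over all protein-coding genes stand beside the counts of Hox genes with a peak. Members and gene lists were chosen with earlier results of these data known, and the comparison with genes of similar length was added after values were seen. Named in full were the 2 highest and 2 lowest Hox genes by H3K4me3 fold in each cluster, every Hox gene with an H3K9me2 or input peak, every one without H3K4me3 and, from each other list, up to 3 highest and those without a peak. A few genes the rule would name are not reported here. Genes with the largest summits, coding genes within 100 kb of a cluster and all other Hox values were added afterwards. No test was planned or made. Alternatives were windows of 0, 1 and 5 kb, a q of 1e-05 or less, a fold at or above the list median, peak centres, H3K9me2 peaks off input peaks, leaving out either Ctrl input, merging within 1 kb and an overlap of 50%. Scripts ran in Python 3.11.15 with scipy 1.17.1, pandas 2.3.3, numpy 2.4.6 and matplotlib 3.10.9.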

Additional observations from a re-analysis of the deposited data

How the results depend on the processing

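Of 44 alternative values 34 stayed within 1.5 times of the reported count and 10 moved. Dropping peaks below their list's median fold left 6 of the 35 Hox genes with H3K4me3, 8 of the 54 H3K4me3 peaks, 0 genes with H3K9me2 in CKO, 0 and 1 with a peak in the first and second Ctrl input. A q of 1e-05 or less left 0 genes with H3K9me2 in CKO, 0 in each Ctrl input and 3 of 12 in the CKO input. With either Ctrl input left out, the 5 genes with a Ctrl input peak became 2 (without replicate 1) to 4 (without replicate 2). With 5 kb either side of the gene, H3K4me3 reached 37 of 39, adding Hoxc12 and Hoxd12. No paired analysis was possible because each mark had 1 library per genotype and no result came from a test. Statements on H3K9me2 and input peaks rest on 5 to 14 fragments per peak, and a smaller enrichment was not detectable at this depth. H3K4me3 was measured in the Ctrl genotype alone, so its comparison with CKO was not analysed here.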
